A study of Mus musculus with 60 samples.

Results

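The theta-class glutathione transferase locus of the mouse lies on chromosome 10 and holds Gstt1, Gstt2 and Gstt3 together with Ddt and Mif, in the order Ddt, Gstt3, Gstt1, Gstt4, Gstt2, Mif. The 5 named members were found among 24260 gene symbols in tables of nascent RNA, and 3 of them (Mif, Gstt2 and Ddt) passed the minimum mean of 0.5 RPKM used for tests. RPKM is the number of reads per kilobase of gene, scaled to the depth of the library, so levels can be compared between genes. The locus was selected on measured values of the same libraries: Gstt2 had been among the genes with a larger difference between the groups. The members' differences between the groups are therefore given as a description, with no test. For each symbol the transcript with the highest RPKM summed over the libraries stood for the gene, and no minimum was applied to the members' values.

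Glutathione transferases join the thiol of glutathione to electrophilic compounds, which makes these less reactive and easier to export. The theta class is an old branch of this family, known in liver for its activity on small halogenated compounds and, for Gstt2, on sulfate esters and organic peroxides. Mif encodes macrophage migration inhibitory factor, a cytokine that binds the receptor CD74 and also has tautomerase activity, and Ddt encodes D-dopachrome tautomerase, a related protein that binds the same receptor.

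The cells were E14, a mouse embryonic stem cell line grown with serum and LIF on gelatin. The siCtrl group had been transfected with a control siRNA, and the siEsrrb group with an siRNA against Esrrb, an orphan nuclear receptor of the naive pluripotency network. Both groups were transfected with Lipofectamine RNAiMAX, were harvested 72 h later and had 2 libraries each of RNA from the chromatin pellet. The comparison asks how nascent transcription differed after depletion of Esrrb; the other samples of the series were not analysed here. Nothing in the sources says that the libraries of a group came from separate cultures, so a p-value here reflects no more than the spread of these libraries, and that spread may be technical.

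The libraries rest on 22363943 to 68002338 reads, totals inferred from the RPKM, and both replicate 2 libraries were deeper than both replicate 1 libraries. Esrrb itself had 3.23 and 3.36 RPKM in siCtrl 1 and 2, and 1.38 and 2.20 RPKM in siEsrrb 1 and 2. After scaling this was 44.2% of control in replicate 1 and 67.0% in replicate 2, a log2 difference of -0.72 (SE 0.15; limma adjusted p = 0.280). All 10 embryonic stem cell markers, which include Esrrb itself, passed the minimum, with summed scaled RPKM of 125 and 119 in siCtrl and 119 and 105 in siEsrrb. Without overlap, 5 of them were lower and 1 higher, and the 5 include Esrrb, the target of the siRNA. What part these marker differences have in the values of the locus was not tested. Of the 23 markers of fibroblasts, primitive endoderm, trophectoderm and liver, 0 passed the minimum. Over all genes, 0 of 9739 tested (0%) passed an adjusted p of 0.05 by limma, while 1096 had an unadjusted p under 0.05 (578 higher, 518 lower); limma with voom weights on recovered reads likewise called 0, with 1184 unadjusted. Both fits had no replicate block. Voom with the replicate block, an alternative added after seeing the data, called 2143 genes, while limma on log RPKM with that block called 0. The count of 0 thus changed with voom and the block together, and not with either alone. Voom with the block gave Esrrb a log2 difference of -0.89 (limma adjusted p = 0.000837). The length behind the RPKM of Esrrb is ambiguous, so its recovered reads and that p-value are uncertain. Both siEsrrb libraries lay above both siCtrl libraries at 21.9% of tested genes and below both at 22.0%.

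The promoters of the members are shown because the locus holds genes with different levels side by side. RefSeq's promoter table (build GRCm38.p6) had windows of 300 bases for 4 of the 5 members, Ddt, Gstt3, Gstt1 and Mif; Gstt2 had no entry. The window listed for Gstt1 lies at another start than the annotated start of the gene and is not shown. Below are the 250 bases before the start of Ddt (chr10:75773375-75773624), Gstt3 (chr10:75781423-75781672) and Mif (chr10:75860278-75860527), all on the minus strand and written 5′ to 3′. Capitals mark a GC box read on the opposite strand in Ddt and Mif, and the core of an antioxidant response element, also on the opposite strand, in Gstt3.
Ddt: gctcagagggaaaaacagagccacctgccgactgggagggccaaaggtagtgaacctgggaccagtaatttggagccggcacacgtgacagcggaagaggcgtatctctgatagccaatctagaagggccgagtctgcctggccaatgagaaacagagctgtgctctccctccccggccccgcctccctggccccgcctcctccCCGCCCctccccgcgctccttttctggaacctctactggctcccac
Gstt3: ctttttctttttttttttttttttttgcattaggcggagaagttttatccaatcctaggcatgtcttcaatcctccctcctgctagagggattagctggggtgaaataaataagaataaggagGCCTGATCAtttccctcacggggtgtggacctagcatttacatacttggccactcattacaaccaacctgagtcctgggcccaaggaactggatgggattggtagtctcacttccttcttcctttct
Mif: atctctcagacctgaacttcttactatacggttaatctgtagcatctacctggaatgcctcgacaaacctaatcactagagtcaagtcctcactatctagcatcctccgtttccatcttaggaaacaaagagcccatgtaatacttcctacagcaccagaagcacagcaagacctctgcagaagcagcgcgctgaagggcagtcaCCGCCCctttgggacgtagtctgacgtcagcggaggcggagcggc

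The windows of Ddt and Mif are richer in CpG than that of Gstt3. Over the whole window of 300 bases Ddt had 62.0% GC and 16 CpG, Mif 54.0% and 14, and Gstt3 45.0% and 3, against a median of 52.7% and 7 over 32851 windows. The GC box, a known binding sequence of Sp1 searched as GGGCGG on both strands, starts at -46 in Ddt and at -45 in Mif, counted from the gene start, with another in Mif at 11. It was found in 35.7% of all windows. The antioxidant response element core, searched as TGANNNNGC on both strands, starts at -127 in Gstt3 and at 23 in Mif. A second Gstt3 window, listed at another start, holds the same match at -135. In the Gstt1 window the core starts at -89, counted from the start listed there and not from the annotated one. It was found in 41.3% of all windows. The element bound by Esrrb was searched as AAGGTCA, its core, and as TCAAGGTCA, which contains that core, again on both strands. Neither was present in the 4 members' windows; they occur in 4.72% and 0.423% of all windows. These are matches of letters and say nothing of binding.

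Levels in the control libraries spanned a wide range within the locus. Mif was highest (20.4 and 25.7 RPKM in siCtrl 1 and 2), and 229 tested genes had a higher mean over the 4 libraries. Ddt (1.26 and 1.94 RPKM) and Gstt2 (1.14 and 1.70 RPKM) followed, and their siCtrl values overlapped, although Ddt was above Gstt2 within each library. Gstt1 (0.205 and 0.192 RPKM) and Gstt3 (0.0664 and 0.177 RPKM) were lowest. The lengths behind these RPKM ran from 898 bases for Mif to 14772 bases for Gstt1, with 2142 for Ddt, 6074 for Gstt2 and 7293 for Gstt3, so that Gstt1 had more reads than Ddt in siCtrl 1 at a lower RPKM. In siEsrrb, Gstt2 stood above Ddt in both libraries, and the order of the other members was the same. Gstt4, which lies between Gstt1 and Gstt2, had 0 and 1 read in siCtrl and 1 read in each siEsrrb library, so that no ratio is given.

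**Figure D1:**
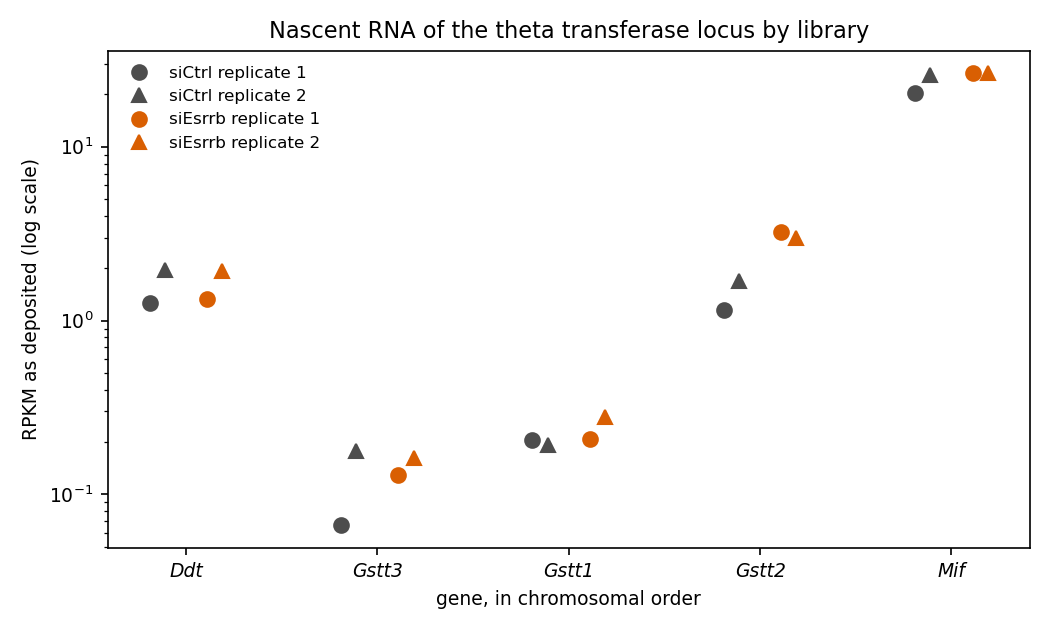
Level of each member in each library, with RPKM on a log axis; points are the 4 libraries, 2 per group. Gstt2 is the member whose siEsrrb libraries (3.22 and 2.98 RPKM) sit clearly above its siCtrl libraries (1.14 and 1.70 RPKM), while Mif stays above 20 RPKM throughout.

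Gstt2 encodes the theta enzyme with the most nascent RNA here. Its transcript (NM_010361) had 1.14 RPKM in siCtrl 1, 1.70 in siCtrl 2, 3.22 in siEsrrb 1 and 2.98 in siEsrrb 2, from 172, 702, 438 and 1118 reads. Both siEsrrb libraries were above both siCtrl libraries, and the lowest siEsrrb value plus the pseudocount of 0.5 RPKM was 1.60 times the highest siCtrl value plus the same, after scaling. Scaled means were 1.39 ± 0.263 RPKM in siCtrl and 3.16 ± 0.485 RPKM in siEsrrb (SD, n = 2 each). The log2 difference, siEsrrb against siCtrl on the scale of log2(RPKM + 0.5), was 0.96 (SE 0.15), which understates the change of low genes; 85 tested genes had a larger one. By replicate number the siEsrrb library had 2.92 times the scaled RPKM of its control in replicate 1 (95% interval 2.44 to 3.51) and 1.79 times in replicate 2 (1.63 to 1.98). These exact intervals cover counting error only, and they do not overlap, so that the size of the difference varied between the pairs by more than counting. The control libraries themselves differed 1.49-fold in Gstt2 RPKM before scaling, and had 1.20 and 1.57 RPKM in siCtrl 1 and 2 after it.

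Gstt1, the best studied theta enzyme, was low and showed a smaller difference. Its transcript (NM_008185) had 0.205 and 0.192 RPKM in siCtrl 1 and 2, and 0.209 and 0.277 RPKM in siEsrrb 1 and 2, from 75, 193, 69 and 253 reads. The groups did not overlap, but siEsrrb 1 lay just above siCtrl 1. The ratio of scaled RPKM was 1.06 in replicate 1 (0.750 to 1.48), within counting error of no difference, and 1.48 in replicate 2 (1.22 to 1.79). The log2 difference was 0.10 (SE 0.05) at a mean below the minimum for tests. It was 0.06 without siCtrl 2, without siEsrrb 2 or with a pseudocount of 1, and 0.22 with a pseudocount of 0.1.

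Gstt3, the neighbour of Ddt, was the least read member. Its transcript (NM_133994) had 0.0664 and 0.177 RPKM in siCtrl 1 and 2, and 0.129 and 0.162 RPKM in siEsrrb 1 and 2, from 12, 88, 21 and 73 reads. Both siEsrrb values fell between the siCtrl values, which differed 2.67-fold from each other. The ratio was 2.01 in replicate 1 (0.944 to 4.48) and 0.935 in replicate 2 (0.676 to 1.29), and both intervals include 1. The log2 difference was 0.07 (SE 0.09); it was -0.04 without siCtrl 1, 0.18 without siCtrl 2 and 0.22 with a pseudocount of 0.1.

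Mif encodes the cytokine of the locus. Its transcript (NM_010798) had 20.4 and 25.7 RPKM in siCtrl 1 and 2, and 26.4 RPKM in each of siEsrrb 1 and 2, from 453, 1571, 531 and 1466 reads. After scaling the values were 21.4 and 23.8 RPKM in siCtrl and 28.7 and 25.0 RPKM in siEsrrb, without overlap, and siEsrrb 2 lay closer to siCtrl 2 than the siCtrl libraries lay to each other. The ratio was 1.35 in replicate 1 (1.18 to 1.53) and 1.05 in replicate 2 (0.979 to 1.13), the latter within counting error of no difference. The log2 difference was 0.25 (SE 0.15), and 1119 tested genes had a larger one; without siEsrrb 1 it was 0.15. The annotation names 3 Mif pseudogenes, and how reads that align to several places were counted is not given in the sources used here, so Mif values are uncertain to that extent.

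Ddt encodes the tautomerase related to Mif. Its transcript (NM_010027) had 1.26 and 1.94 RPKM in siCtrl 1 and 2, and 1.34 and 1.92 RPKM in siEsrrb 1 and 2, from 67, 283, 64 and 255 reads. The groups overlapped, and the libraries with the same replicate number lay closest to each other. The ratio was 1.1 in replicate 1 (0.766 to 1.57) and 1.02 in replicate 2 (0.854 to 1.21). The log2 difference was 0.06 (SE 0.16); it was -0.11 without siCtrl 1, -0.07 without siEsrrb 2, 0.22 without siCtrl 2 and 0.19 without siEsrrb 1, so that its sign and size depend on single libraries.

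Counted over the locus, both siEsrrb libraries were above both siCtrl libraries after scaling for Gstt2, Gstt1 and Mif, that is 3 of the 5 members, and 0 members were lower in that sense. Among the 21334 genes above 0 in any library, 20.8% were higher in this way. Since the members were chosen with this contrast known, nothing is read from that count.

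Ratios between members within a library do not depend on the scaling between libraries. Gstt2 had 0.905 and 0.875 times the RPKM of Ddt in siCtrl 1 and 2, and 2.41 and 1.55 times in siEsrrb 1 and 2. Against Gstt1 the ratio was 5.58 and 8.85 in siCtrl, and 15.4 and 10.7 in siEsrrb. Against Gstt3 it was 17.2 and 9.58 in siCtrl, and 25.0 and 18.4 in siEsrrb. All of these ratios were higher in both siEsrrb libraries. Each has Gstt2 as its numerator, the gene on whose difference the locus was selected, so they largely restate that difference. Gstt2 made up 80.8% and 82.1% of the summed RPKM of Gstt1, Gstt2 and Gstt3 in siCtrl, and 90.5% and 87.2% in siEsrrb. For the tautomerase pair, the ratio of Mif to Ddt was 16.1 and 13.2 in siCtrl, and 19.8 and 13.7 in siEsrrb, so that the groups overlapped. The theta genes are paralogs, and reads shared between them could be split by the counting in a way that is not stated.

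**Figure D2:**
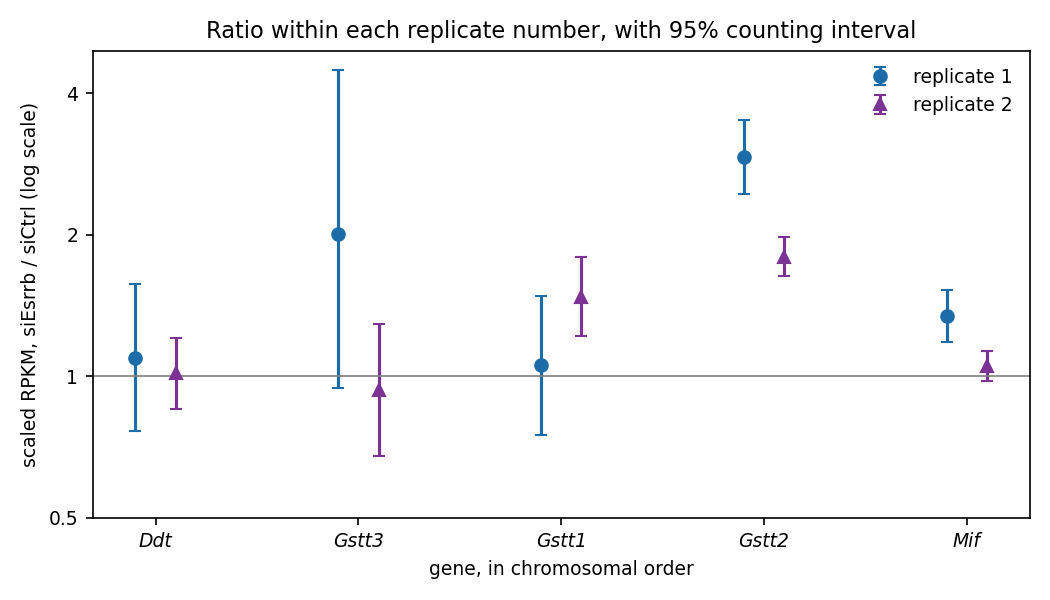
Ratio of scaled RPKM, siEsrrb to siCtrl, of each member within each replicate number, on a log axis. Bars are 95% intervals that cover counting error only. The ratio of Gstt2 is 2.92 in replicate 1 and 1.79 in replicate 2, while the intervals of Ddt and Gstt3 include no difference in both.

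Around the locus, more neighbouring genes were lower than higher in siEsrrb. Of the 21 genes with a row in the files that lie between the members or are the nearest 10 on either side, 11 were tested, and 0 passed the adjusted threshold in limma. At an unadjusted p under 0.05, 0 were higher and 4 were lower, beside 578 higher and 518 lower of all 9739 tested genes. Without overlap 2 were higher and 6 lower, beside 21.9% and 22.0% of all tested genes. The median log2 difference of the tested neighbours was -0.35, beside -0.00087 over all tested genes. Derl3, next to Mif, encodes a membrane protein of endoplasmic reticulum protein degradation. It had 1.78 and 1.79 RPKM in siCtrl and 2.72 and 2.23 RPKM in siEsrrb, a log2 difference of 0.42 (SE 0.16; limma adjusted p = 0.459). On the other side, Cabin1, which lies next to Ddt and encodes a calcineurin-binding protein, had 2.78 and 2.95 RPKM in siCtrl and 2.42 and 2.60 RPKM in siEsrrb, a log2 difference of -0.12 (SE 0.08). Smarcb1, a subunit of the BAF chromatin remodelling complex and the next gene after Derl3, differed by -0.01 (SE 0.07).

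Beyond Smarcb1 lay the 4 neighbours that were lower at an unadjusted p under 0.05: Mmp11, Chchd10, Gm867 and Zfp280b. Mmp11, a matrix metalloproteinase, had 2.32 and 2.84 RPKM in siCtrl and 1.51 and 2.24 RPKM in siEsrrb. Chchd10, a mitochondrial intermembrane space protein, had 11.3 and 15.5 RPKM in siCtrl and 7.92 and 10.5 RPKM in siEsrrb. Zfp280b, a zinc finger gene, had 2.54 and 2.74 RPKM in siCtrl and 1.61 and 2.09 RPKM in siEsrrb, and its limma adjusted p of 0.288 was the lowest among the neighbours. In Mmp11, Chchd10 and Zfp280b both siEsrrb libraries were below both siCtrl libraries. Gm867 had a log2 difference of -0.35 (SE 0.09), but it overlaps Chchd10 in the annotation, and their reads cannot be told apart without a stated use of strand. Susd2, on the side of Ddt, differed by -0.38 (SE 0.15), with groups that overlapped before scaling and not after it; Gucd1 and Snrpd3, a core protein of spliceosomal particles, differed by 0.15 (SE 0.07) and -0.03 (SE 0.08). Mir6409 rested on at most 6 reads per library. Ggt1 and Ggt5, which cleave glutathione and its conjugates outside the cell, lie in the same stretch and were below the minimum for tests.

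**Figure D3:**
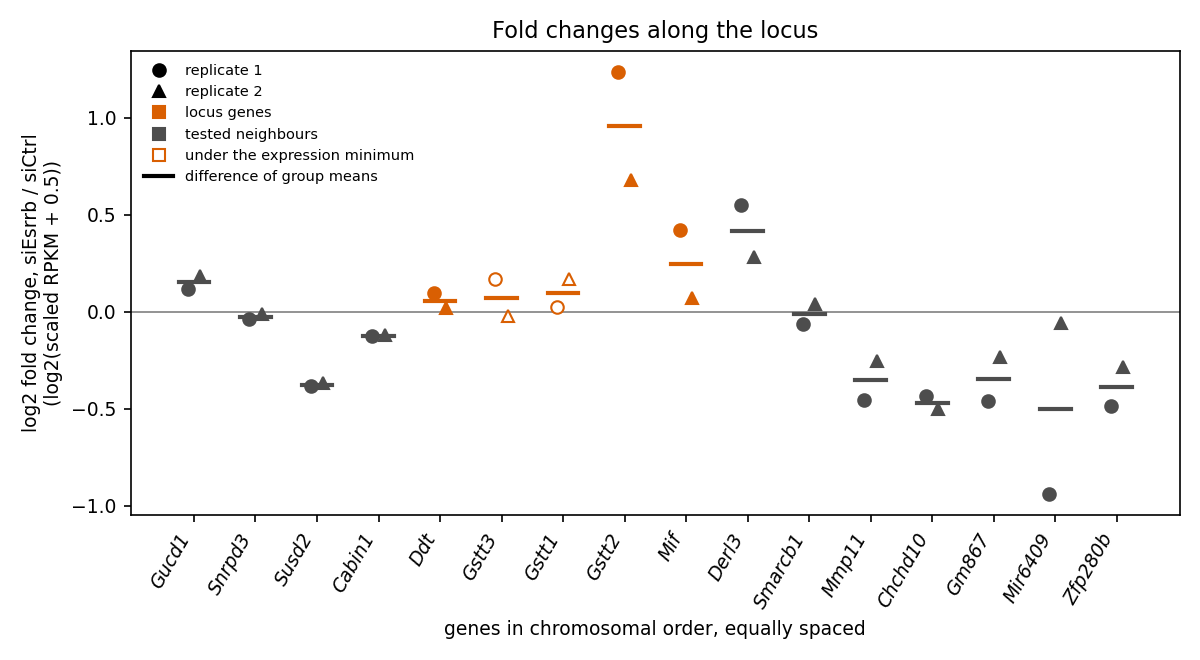
Log2 difference between siEsrrb and siCtrl for the genes of the locus and their tested neighbours in gene order (not to distance). Points are the differences within replicates 1 and 2, and horizontal bars are the differences of group means. Open points mark members under the minimum for tests. By group means, Gstt2 at 0.96 stands above Derl3 at 0.42, and Mmp11, Chchd10, Gm867 and Zfp280b lie below 0.

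The other glutathione transferases were mostly low: 6 of 23 were tested and 0 passed the adjusted threshold in limma. At an unadjusted p under 0.05, 1 was higher and 0 lower, beside 578 higher and 518 lower of all 9739 tested genes. The median log2 difference was 0.10. Gstp1, the pi-class enzyme, had 1.48 and 1.72 RPKM in siCtrl and 1.97 and 2.28 RPKM in siEsrrb, a log2 difference of 0.35 (SE 0.06; limma adjusted p = 0.253). Both siEsrrb libraries were above both siCtrl libraries. Gstp2 is a near copy of Gstp1 and differed by 0.35 (SE 0.15), and the values of both genes are uncertain for that reason. Gsta4, an alpha-class enzyme for lipid aldehydes, differed by -0.17 (SE 0.17) and Gstm1, of the mu class, by 0.21 (SE 0.12).

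Glutathione synthesis and turnover, the supply of the shared substrate, gave 9 tested of 17 genes, with 0 past the adjusted threshold and a median of -0.0028. At an unadjusted p under 0.05, 1 was higher and 0 lower, beside 578 and 518 of all 9739 tested genes. Gclm, the modifier subunit of the enzyme that limits glutathione synthesis, had 3.91 and 3.87 RPKM in siCtrl and 5.30 RPKM in each siEsrrb library, a log2 difference of 0.44 (SE 0.12; limma adjusted p = 0.355). Gclc, the catalytic subunit of that enzyme, differed by 0.21 (SE 0.08). Slc3a2, the heavy chain of the cystine transporter, differed by 0.15 (SE 0.18), and Abcc1, an exporter of glutathione conjugates, by -0.12 (SE 0.06).

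For removal of peroxides by glutathione and thioredoxin, 18 of 25 genes were tested, 0 passed the adjusted threshold and the median was 0.06. At an unadjusted p under 0.05, 1 was higher and 0 lower, beside 578 and 518 of all 9739 tested genes. Prdx2 differed by 0.24 (SE 0.07; limma adjusted p = 0.395), Prdx6 by 0.24 (SE 0.10) and Prdx1 by 0.17 (SE 0.09), all peroxiredoxins, which reduce peroxides; Prdx1 is also listed below as a partner of MIF. Of the glutathione peroxidases, Gpx1 differed by 0.11 (SE 0.22) and Gpx4, which acts on lipid peroxides, by -0.14 (SE 0.11). The glutaredoxin gene Glrx2 differed by 0.14 (SE 0.07).

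The transcription factor Nrf2, which acts at antioxidant response elements, and its known targets gave 16 tested of 21 genes. Of these 0 passed the adjusted threshold, and the median was 0.16. At an unadjusted p under 0.05, 2 were higher and 0 lower, beside 578 and 518 of all 9739 tested genes. Gclc, Gclm and Abcc1 belong to this list as well. Fth1, the ferritin heavy chain, had 10.5 and 13.2 RPKM in siCtrl and 17.8 and 15.2 RPKM in siEsrrb, a log2 difference of 0.51 (SE 0.19; limma adjusted p = 0.442). Ftl1, the ferritin light chain, differed by 0.05 (SE 0.13), and Mafg, a partner of Nrf2 on DNA, by 0.24 (SE 0.15). Without overlap, 8 of the 16 were higher and 2 lower, beside 21.9% and 22.0% of all tested genes. For peroxide removal these were 7 higher and 1 lower of 18, and for the other transferases 3 and 0 of 6. Glutathione synthesis had 2 higher and 2 lower of 9, and the MIF partners, given below, 1 and 0 of 5. Some genes are on several lists, and no list was tested as a set.

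Receptors and partners of MIF gave 5 tested of 10 genes, with 0 past the adjusted threshold. At an unadjusted p under 0.05, 0 were found in either direction, beside 578 higher and 518 lower of all 9739 tested genes. Hspa9, a mitochondrial chaperone, differed by 0.05 (SE 0.12), and Rps19, a ribosomal protein reported to bind MIF, by 0.16 (SE 0.16). The median was 0.05. In such bulk libraries fewer cells of a type and less RNA per cell cannot be told apart.

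**Figure D4:**
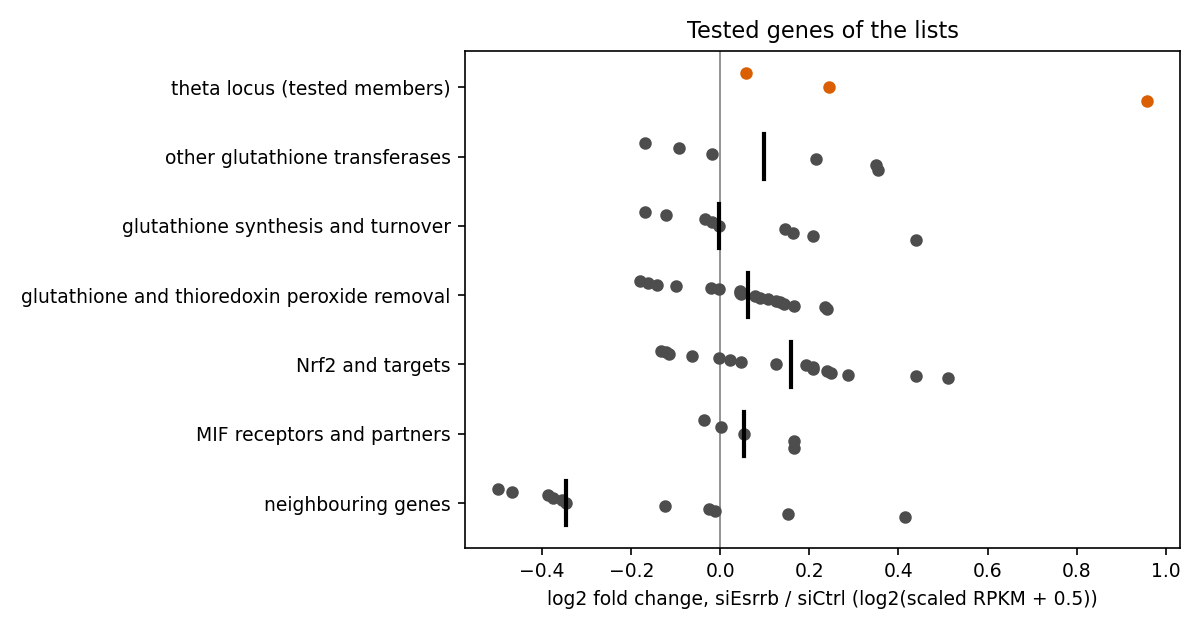
Log2 difference between siEsrrb and siCtrl for the tested genes of each list; every point is 1 gene. Medians are 0.10 for the other glutathione transferases, -0.0028 for glutathione synthesis, 0.06 for peroxide removal, 0.16 for Nrf2 and its targets and 0.05 for MIF partners, and no gene passed the adjusted threshold.

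The genes whose pattern over the 4 libraries was most like that of Gstt2 were sought among 7070 genes with a mean of at least 1 RPKM, by the root mean square difference of centred log2 values. They were Mir8100 (0.037), Psme2b (0.074), Igdcc4 (0.074), Mir539 (0.084) and Hes6 (0.086). Hes6 encodes a repressor of the Hes family, with a log2 difference of 1.11 here, and Igdcc4 an immunoglobulin-domain membrane protein, with 1.08. Differences near that of Gstt2 follow from the choice of these genes by likeness in the same libraries. Mir8100 rested on at most 14 reads per library, and Psme2b is a near copy of another gene, so both are uncertain. Within the locus, Mif lay 0.361 and Ddt 0.487 from Gstt2 by the same measure.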

How the data were processed

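Nascent RNA from the chromatin pellet of E14 cells was measured in 2 siCtrl and 2 siEsrrb libraries; groups and replicate numbers come from the sample titles, where replicate 1 carries no number. The authors deposited RPKM per RefSeq transcript, for 34929 transcripts. Per the submitters' processing notes, every library went through CASAVA 1.4 and TopHat2, and replicate 1 is also listed with Bowtie 1.1.1 and Bowtie2, on build mm9; replicate number, depth and these tools therefore go together, and values per replicate number are given for the members. Strand use, the counting program and the handling of multiply aligned reads: not given in the sources used here. The deposited table of the whole series equals replicate 1 at all 34929 transcripts and was not used further. The series text describes such tables as merging replicates, so whether a replicate 1 file holds 1 library or several is not settled by the sources used here. Symbols and gene order came from RefSeq (GRCm38.p6), which named 34631 transcripts.

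Here RPKM were multiplied by median-of-ratios factors, a pseudocount of 0.5 was added, and the log2 scale was used for limma 3.58.1 (R 4.3.3; eBayes with trend, 2 groups, no replicate block, two-sided) over the 9739 genes with a mean scaled RPKM of at least 0.5, with Benjamini-Hochberg adjustment. The SE of Gstt1 and Gstt3 come from the same fit without that minimum. Groups were called apart without overlap on scaled RPKM. Library totals were inferred from the RPKM and annotated lengths of microRNA genes. Whole reads were recovered from the RPKM for 99.9% of 31771 transcripts (within 0.0002 of a read). The length taken was the multiple of the smallest possible length nearest the annotated one, so lengths and reads rest on that choice. The recovered reads gave the intervals and voom alternatives, with TMM factors (trimmed means of log ratios) computed by a function written for this purpose. The fit was also run on simulated data, and no result given here rests on that run.

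The members and gene lists were chosen with earlier results of these data known. Named genes are Esrrb, the members, the 5 genes most like Gstt2, the tested neighbours and, from each of 5 lists, the 3 most abundant tested genes and the 3 with the smallest unadjusted p. Alternatives were another pseudocount, filter, scaling, voom, the replicate block and leaving out each library. Protein sequences were not used here.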

Additional observations from a re-analysis of the deposited data

How the results depend on the processing

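Over the alternatives run, the log2 difference ranged from 0.80 to 1.14 for Gstt2, from 0.15 to 0.34 for Mif and from 0.06 to 0.22 for Gstt1. The minimum on RPKM and the replicate block cannot move the estimates on log RPKM, so they say nothing of stability. Ddt was negative in 2 of its alternatives, and leaving out 1 library gave -0.11 to 0.22. Gstt3 was negative in 1, at -0.04 without siCtrl 1. With a pseudocount of 0.1, Gstt1 and Gstt3 each came to 0.22, since the main pseudocount exceeds their RPKM. Neither has a voom value, being under the minimum. Leaving out 1 library gave 0 to 6 genes past the adjusted threshold, with the lone library of a group assumed to vary like the others (2 without siCtrl 1, 0 without siCtrl 2, 2 without siEsrrb 1, 6 without siEsrrb 2). The labels do not say that equal numbers mark a shared culture; the difference between replicates 1 and 2 correlated at 0.378 between the groups across genes. With the replicate block, limma called 0 genes, with 2553 at an unadjusted p under 0.05. Voom on the recovered reads with the replicate block, chosen after seeing the data, called 2143 genes. It gave Esrrb -0.89 (limma adjusted p = 0.000837), from reads that are uncertain because the length of that transcript is ambiguous. Voom with the block called 1 of 6 tested other glutathione transferases (Gstp1, higher) and 3 of 9 glutathione synthesis genes (Gclc and Gclm higher, Abcc1 lower). It called 3 of 18 peroxide removal genes (2 higher), 8 of 16 of the Nrf2 list (7 higher) and 1 of 5 MIF partners. Of 11 neighbours it called 5 (Derl3 higher, and Susd2, Mmp11, Chchd10 and Zfp280b lower). These counts stand beside 2143 called of at most 9739 tested genes, and no list was tested as a set. Depth limits Gstt3 most, with 12 reads in siCtrl 1.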
